A study of Mus musculus with 15 samples.

Results

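A set of 10 genes that mark retinal amacrine cells was followed in mouse retinas with and without a cone cyclic nucleotide-gated channel subunit. These were Gad1, Gad2, Slc32a1, Slc6a9, Chat, Th, Npy, Tfap2a, Tfap2b and Pax6, and every probe annotated to 1 of these symbols was taken. This gave 17 of the 25697 probes on the beadchip, for all 10 genes of 16593 with a probe. Each of the 15 arrays held the total RNA of both retinas of 1 mouse at postnatal day 30. All mice were on a C57bl/6 background and all lacked Nrl. The control group carried the Nrl-/- genotype alone (n = 5). The other groups were CNGA3-/-/Nrl-/- (n = 5) and CNGB3-/-/Nrl-/- (n = 5), called here the Cnga3 and the Cngb3 double knockout. Nrl directs photoreceptor precursors to the rod fate, so without it the would-be rods become cone-like, and no group here had a normal photoreceptor layer. Cnga3 and Cngb3 encode the subunits of the cone channel. The null alleles are not described further in the labels.

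Amacrine cells are inhibitory interneurons of the inner retina. They shape the signals that bipolar cells pass to ganglion cells, and most release GABA or glycine. Small subtypes also use acetylcholine, dopamine or a neuropeptide. Several of these genes are shared: horizontal cells of the mouse also use GABA and express Pax6 and AP-2 factors, and ganglion cells, lens and iris express Pax6.

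Median probe intensity lay between 136.8 and 171 per array, and 10302 to 13763 probes were above background (detection p under 0.01). A probe entered the test when it was above background on at least 5 arrays, which 13077 did. The Nrl probe was above background on 0 arrays of each group. The Cngb3 probe read 6.95 ± 0.21 (SD, n = 5) in the Cngb3 double knockout against 9.03 ± 1.1 in the control, on the log2 scale used throughout. The Cnga3 probes stayed above background in the Cnga3 double knockout, and where they lie relative to the deletion is not known here, so they check nothing. Control replicates 1 and 3 stood apart in lens transcripts: the mean log2 level of 14 lens genes was 5.30 and 7.58 there, against 11.6 to 13.6 on the other 13 arrays. Cnga3 double knockout replicate 4 stood apart in pigment epithelium transcripts. The mean level of 10 such genes was 10.2 in that replicate and 7.82 to 8.82 in the other 4 of its group, where controls ran from 9.37 to 10.1 and Cngb3 double knockouts from 9.29 to 10.1.

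Of the 17 amacrine probes, 15 were tested, for 8 genes. In the Cnga3 double knockout 3 of them passed at an adjusted p under 0.05: Tfap2b and Chat were higher on 1 probe each, and Npy was lower. The Chat probe was above background on 0 of 5 control arrays and entered the test through the group in which it was high, and 2 calls remain without it. Across all tested probes 8.04% passed in that comparison, and 4.61% passed as higher and 3.43% as lower. In the Cngb3 double knockout Npy alone was called, 1 of 15, where 2.68% of all probes passed (1.44% higher, 1.25% lower). The mean of the double knockouts against the control gave 3 of 15 (Gad1 and Tfap2b higher on 1 probe each, Npy lower) beside 7.68% of all probes (4.50% higher, 3.18% lower). The median log2 fold change of the 15 probes was 0.37 in the Cnga3 and 0.18 in the Cngb3 double knockout, while the median of all tested probes was -0.01 and 0.00. That Chat probe is among the 15. Over the brightest probe of each of the 8 genes, which leaves it out, the median was 0.39 and 0.26. These comparisons share the 5 control arrays. The members were chosen with earlier results of these data known, so the counts and medians of this paragraph are a description. When the compared groups alone were fitted, these single calls were lost, with Tfap2b at an adjusted p of 0.0923, Chat at 0.0999 and Npy at 0.129 and 0.0514. P-values are from limma's moderated test with Benjamini-Hochberg adjustment over all 13077 probes. The tissue was whole retina, in which fewer cells of a type and less RNA per cell cannot be told apart.

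**Figure D1:**
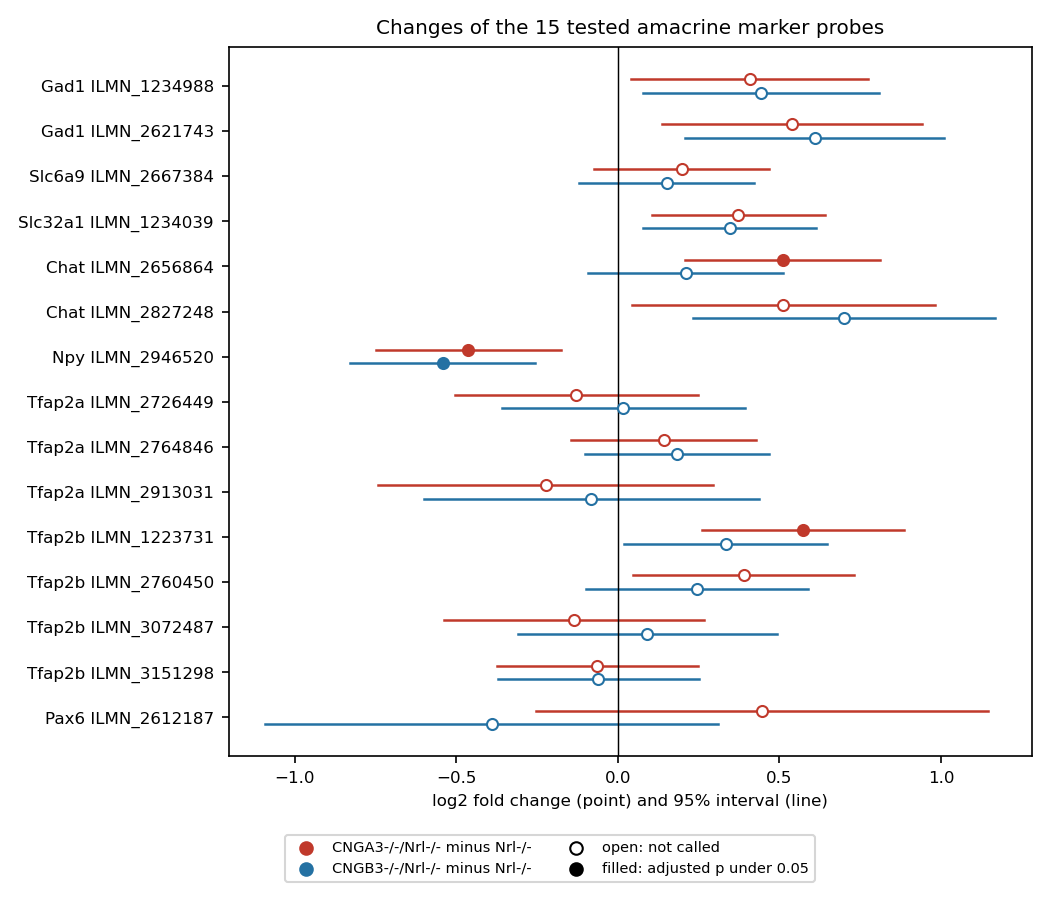
Log2 fold change of each tested amacrine marker probe (points) with its 95% interval (lines) in the Cnga3 (red) and the Cngb3 (blue) double knockout against the Nrl-/- control, 5 arrays per group. Filled points passed at an adjusted p under 0.05; Npy is the single probe filled in both comparisons, and it lies to the left of 0 in both. The filled Chat probe was not above background on any control array, so its plotted difference is not a measured fold.

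Npy encodes neuropeptide Y, a peptide transmitter of a subset of amacrine cells. Its probe (ILMN_2946520) was above background on all 15 arrays. The 5 controls read 8.82, 8.90, 9.23, 9.28 and 9.19. In the Cnga3 double knockout the values were 8.41, 8.47, 8.77, 8.96 and 8.50, and in the Cngb3 double knockout they were 8.55, 8.51, 8.37, 8.68 and 8.58. All 5 Cngb3 double knockout arrays lay below the lowest control, and so did 4 of the 5 Cnga3 arrays. The exception was Cnga3 double knockout replicate 4, the replicate with the high pigment epithelium level. Npy fell 1.46-fold in the Cngb3 double knockout (log2 fold change -0.54, SE 0.136, adjusted p = 0.0408) and 1.38-fold in the Cnga3 double knockout (-0.46, SE 0.136, adjusted p = 0.0456). Between the double knockouts the difference was 0.08, with a 95% interval from -0.21 to 0.37. Each of the single calls was near the threshold: leaving out 1 array ended the Cnga3 call in 13 and the Cngb3 call in 12 of 15 fits (highest adjusted p = 0.105 and 0.106). Median centring ended both (-0.33, adjusted p = 0.162, and -0.54, adjusted p = 0.0628). In the mean of both double knockouts Npy fell 1.42-fold against the control (-0.50, SE 0.118, adjusted p = 0.0174), and 0 of 15 fits without 1 array lost that call (adjusted p of at most 0.0469).

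The 250 bases before the annotated start of Npy are shown because Npy was the member called in both double knockouts. The sequence is from RefSeq on GRCm38.p6, plus strand, chr6:49822460-49822709. Capitals mark a match to the CCAAT box, searched as CCAAT and as ATTGG on the other strand.
Npy: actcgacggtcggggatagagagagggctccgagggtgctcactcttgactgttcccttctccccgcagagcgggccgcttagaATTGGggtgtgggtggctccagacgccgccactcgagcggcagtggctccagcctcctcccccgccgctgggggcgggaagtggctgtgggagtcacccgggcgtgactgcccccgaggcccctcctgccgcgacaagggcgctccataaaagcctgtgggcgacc
A CCAAT match was present in 33.8% of the 32851 windows of the same length in that table, and in windows of 4 of the 10 amacrine genes. The match is a description of the letters.

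Gad1 encodes the larger of the glutamate decarboxylases that make GABA, and its transcript was read by a pair of probes. On ILMN_2621743 the controls read 11.56, 11.25, 10.81, 11.16 and 10.75, the Cnga3 double knockouts 11.94, 11.77, 11.77, 10.93 and 11.81, and the Cngb3 double knockouts 11.72, 11.56, 11.65, 11.93 and 11.71. Every double knockout array except Cnga3 replicate 4 was above the highest control, and that replicate lay within the control range. In the mean of both double knockouts this probe was 1.49-fold higher than in the control (0.57, SE 0.165, adjusted p = 0.0441). That call was lost in 13 of 15 fits that left out 1 array (highest adjusted p = 0.119, for control replicate 5), and with median centring (adjusted p = 0.0736). Taken singly, the change was 0.54 (SE 0.19, adjusted p = 0.0879) in the Cnga3 and 0.61 (SE 0.19, adjusted p = 0.0958) in the Cngb3 double knockout, so neither passed. Without Cnga3 double knockout replicate 4 the Cnga3 change was 0.72 (adjusted p = 0.0113), and the Cngb3 change, still 0.61, passed too (adjusted p = 0.0273). The other Gad1 probe, ILMN_1234988, read 11.33 ± 0.258 in the control, 11.74 ± 0.385 in the Cnga3 and 11.77 ± 0.122 in the Cngb3 double knockout. It did not pass in either (0.41, adjusted p = 0.147, and 0.44, adjusted p = 0.16), and was called in the Cnga3 double knockout without replicate 4 (0.57, adjusted p = 0.0204). On both Gad1 probes that replicate was the lowest of its group, so leaving it out raises the Cnga3 difference by itself.

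The window before the Gad1 start is given as that of the member of the GABA pathway with a call. It is plus strand, chr2:70561879-70562128 on GRCm38.p6, from RefSeq, and capitals mark a match to the TATA box, searched as TATAAA and as TTTATA.
Gad1: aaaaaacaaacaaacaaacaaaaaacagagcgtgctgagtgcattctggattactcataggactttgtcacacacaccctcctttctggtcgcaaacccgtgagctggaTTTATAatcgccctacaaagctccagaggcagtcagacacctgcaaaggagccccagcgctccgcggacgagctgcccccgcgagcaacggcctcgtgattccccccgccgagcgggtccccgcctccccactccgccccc
This match lies 141 bases before the start, and 12.4% of all windows held 1 or more. Among the 10 amacrine genes it was the single window with a TATAAA match.

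Gad2 encodes the smaller glutamate decarboxylase, which is enriched at synaptic terminals. Its probe (ILMN_2668908) was above background on 0 of 15 arrays, with intensities from 116.6 to 140.8, and no fold is given. A probe at background does not show that the transcript is absent. The probes of Snap25, Nefl and Tubb3, neuronal genes among the lists examined, were likewise above background on 0 arrays.

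Slc32a1 encodes the vesicular transporter that loads GABA and glycine into synaptic vesicles. Its probe read 11.86, 11.84, 11.95, 11.67 and 11.41 in the controls. The Cnga3 double knockouts read 12.42, 12, 12.16, 11.93 and 12.08, and the Cngb3 double knockouts 12.04, 12.10, 12.15, 12.05 and 12.12. As for Gad1, 9 of 10 double knockout arrays were above the highest control and Cnga3 replicate 4 was the exception. The change was 0.37 (SE 0.126, adjusted p = 0.0761) in the Cnga3 and 0.35 (SE 0.126, adjusted p = 0.138) in the Cngb3 double knockout, and neither passed. With the authors' processed log2 values the Cnga3 change was 0.36 and passed (adjusted p = 0.0342). It also passed without Cnga3 double knockout replicate 4 (0.42, adjusted p = 0.0468) and without control replicates 1 and 3 (0.48, adjusted p = 0.0398). These were the lowest Cnga3 array and the highest controls on this probe, so leaving them out raises the difference by itself. In the mean of both it was 0.36 and did not pass (adjusted p = 0.0537).

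Slc6a9 encodes the glycine transporter GlyT1, which takes up glycine and marks glycinergic amacrine cells. It read 11.98 ± 0.259 in the control, 12.18 ± 0.134 in the Cnga3 and 12.13 ± 0.0542 in the Cngb3 double knockout. Neither difference passed (0.20, 95% interval -0.07 to 0.47, adjusted p = 0.344, and 0.15, -0.12 to 0.42, adjusted p = 0.529). The controls spread from 11.6 to 12.2 and covered the range of the Cngb3 double knockout.

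**Figure D2:**
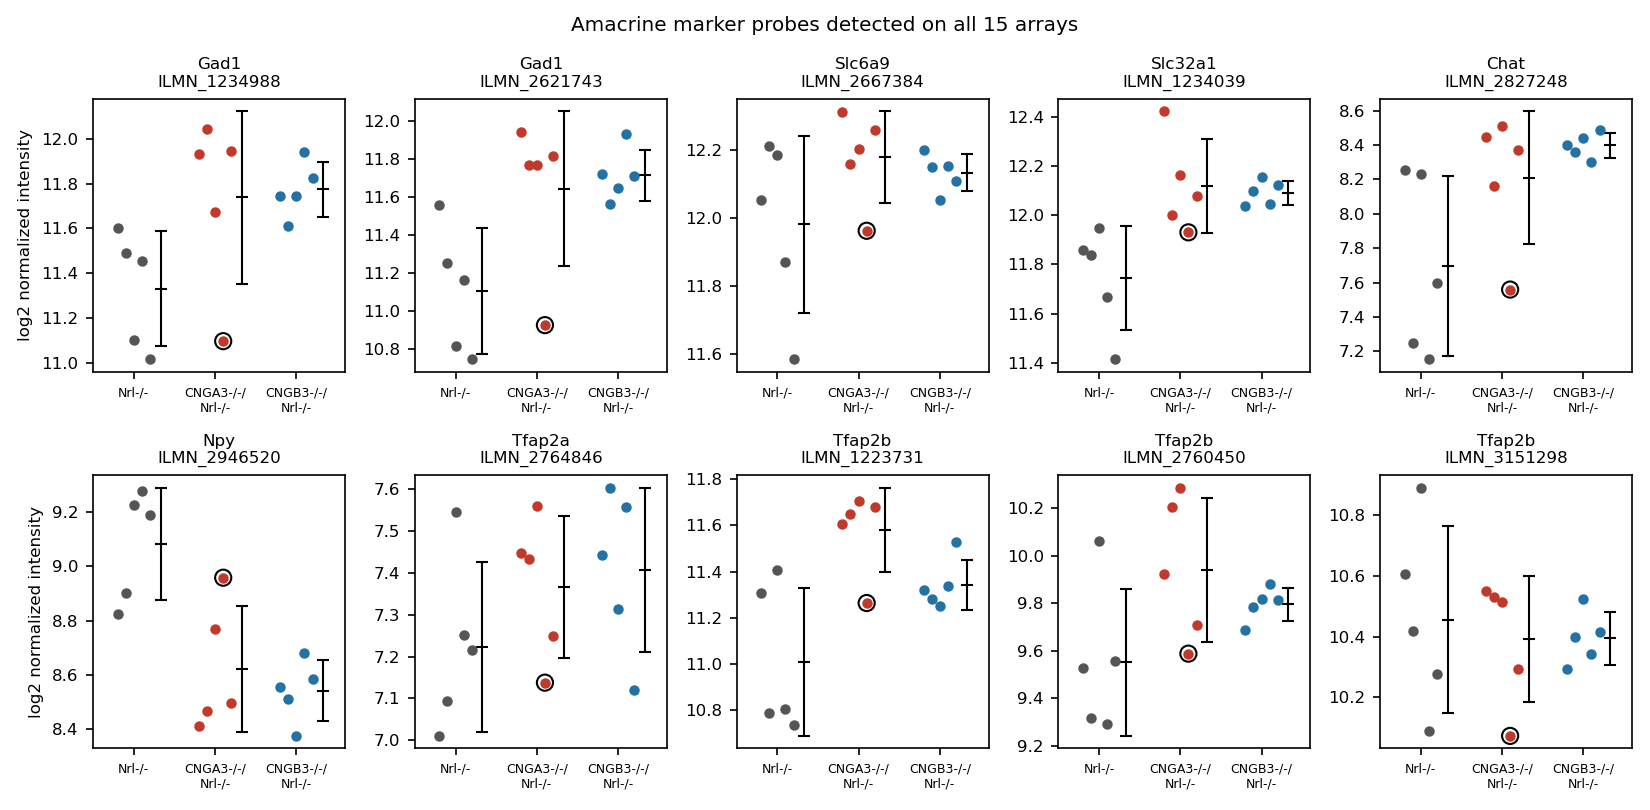
Normalized log2 intensity (vertical axis) of the 10 amacrine marker probes that were above background on all 15 arrays, 1 point per mouse, with the mean and SD of 5 arrays beside each group; axes do not start at 0 and differ between panels. The ring marks Cnga3 double knockout replicate 4, which was the lowest of its group in 9 of the 10 panels and the highest for Npy.

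Chat encodes choline acetyltransferase, which makes acetylcholine in starburst amacrine cells. The brighter of its probes, ILMN_2827248, read 8.25, 7.25, 8.23, 7.15 and 7.60 in the controls. It read 8.44, 8.16, 8.51, 7.56 and 8.37 in the Cnga3 and 8.40, 8.36, 8.44, 8.30 and 8.49 in the Cngb3 double knockout. All Cngb3 double knockout arrays were above the highest control. Control replicates 1 and 3 read about a full log2 unit above control replicates 2 and 4. The changes were 0.51 (SE 0.222, adjusted p = 0.154) and 0.70 (SE 0.222, adjusted p = 0.0974), so neither passed. Without control replicates 1 and 3, those with few lens transcripts, both passed, at 0.88 (adjusted p = 0.0101) in the Cnga3 and 1.06 (adjusted p = 0.00462) in the Cngb3 double knockout. These replicates were the highest controls on this probe, so leaving them out raises both differences by itself. The part of the lens transcripts in this result was not tested.

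The dimmer Chat probe, ILMN_2656864, was above background on 0 of 5 control, 5 of 5 Cnga3 and 2 of 5 Cngb3 double knockout arrays, so it entered the test through the group in which it was high. The controls read 4.77, 4.93, 5.12, 4.80 and 5.34, the Cnga3 double knockouts 5.73, 5.68, 5.34, 5.30 and 5.46 and the Cngb3 double knockouts 4.99, 5.004, 5.29, 5.38 and 5.34. The groups overlapped, with 3 of 5 Cnga3 arrays above the highest control. Against the controls' detection limit it was at least 1.02-fold higher in the Cnga3 double knockout, with measured means of 5.50 and 4.99 and an adjusted p of 0.0377 in the fit. That p rests on control values not above background, and on a filter that the Cnga3 group itself met. The call was lost in 7 of 15 fits that left out 1 array (highest adjusted p = 0.0904) and under 5 of 8 other settings. No fold is given for the Cngb3 double knockout, whose mean lay under that limit.

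Th encodes tyrosine hydroxylase, the rate-limiting enzyme of dopamine synthesis, which marks a rare amacrine subtype. Its probe was above background on 1 of 15 arrays, Cnga3 double knockout replicate 4. Intensities lay between 134.2 and 155.2. It was not tested, and no fold is given.

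Tfap2b encodes AP-2 beta, a transcription factor of amacrine and horizontal cells, and was read by 4 probes. The brightest, ILMN_1223731, read 11.31, 10.79, 11.41, 10.81 and 10.74 in the controls. The Cnga3 double knockouts read 11.61, 11.65, 11.70, 11.26 and 11.68, with 4 of 5 above every control. The Cngb3 double knockouts read 11.32, 11.28, 11.25, 11.34 and 11.53, with 1 of 5 above every control. It rose 1.49-fold in the Cnga3 double knockout (0.57, SE 0.148, adjusted p = 0.0275), and this call was lost in 6 of 15 fits that left out 1 array (highest adjusted p = 0.0729, for control replicate 2). In the Cngb3 double knockout the change was 0.33 (adjusted p = 0.216). In the mean of both it rose by 0.45 (SE 0.128, adjusted p = 0.0416), a call lost in 12 of 15 fits that left out 1 array (highest adjusted p = 0.114). The difference between the double knockouts, 0.24, did not pass (95% interval -0.07 to 0.55, adjusted p = 0.477). A second probe, ILMN_2760450, gave 0.39 (adjusted p = 0.141) and 0.24 (adjusted p = 0.411) and passed in neither.

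The other pair of Tfap2b probes gave values near 0. ILMN_3151298 read 10.46 ± 0.307 in the control, 10.39 ± 0.206 in the Cnga3 and 10.39 ± 0.0863 in the Cngb3 double knockout, with differences of -0.06 in both (adjusted p = 0.817 and 0.854). The dim ILMN_3072487, above background on 10 of 15 arrays, gave -0.14 and 0.09 (adjusted p = 0.686 and 0.828). The probe annotation assigns the first pair to one RefSeq transcript of Tfap2b and the second pair to another, both of which RefSeq lists under this gene. Probe sequences were not used here, so whether a probe also reads the other transcript was not tested.

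A difference taken within each array removes what moves all probes of an array together. The value of ILMN_1223731 minus ILMN_3151298 was 0.70, 0.37, 0.52, 0.72 and 0.46 in the controls. It was 1.06, 1.12, 1.19, 1.19 and 1.39 in the Cnga3 and 1.03, 0.88, 0.73, 0.99 and 1.11 in the Cngb3 double knockout. All 10 double knockout arrays lay above the highest control, Cnga3 replicate 4 included. The group difference was 0.64 in the Cnga3 and 0.39 in the Cngb3 double knockout. For ILMN_2760450 minus ILMN_3151298 the group differences were 0.45 and 0.31, again with no overlap with the control. In the Cngb3 double knockout the margin was narrow in both. The lowest Cngb3 value was 0.728 against a highest control of 0.718 for the first difference, and -0.706 against -0.721 for the second. The pairs were chosen after their values were seen, so these differences are a description and no test is given. How often other pairs of probes separate in this way was not examined. Tfap2b lies on chromosome 1, as does Cnga3, with 70 protein-coding genes between them in RefSeq's gene order, while Cngb3 lies on chromosome 4. Whether DNA around the targeted gene affects these probes was not tested.

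**Figure D3:**
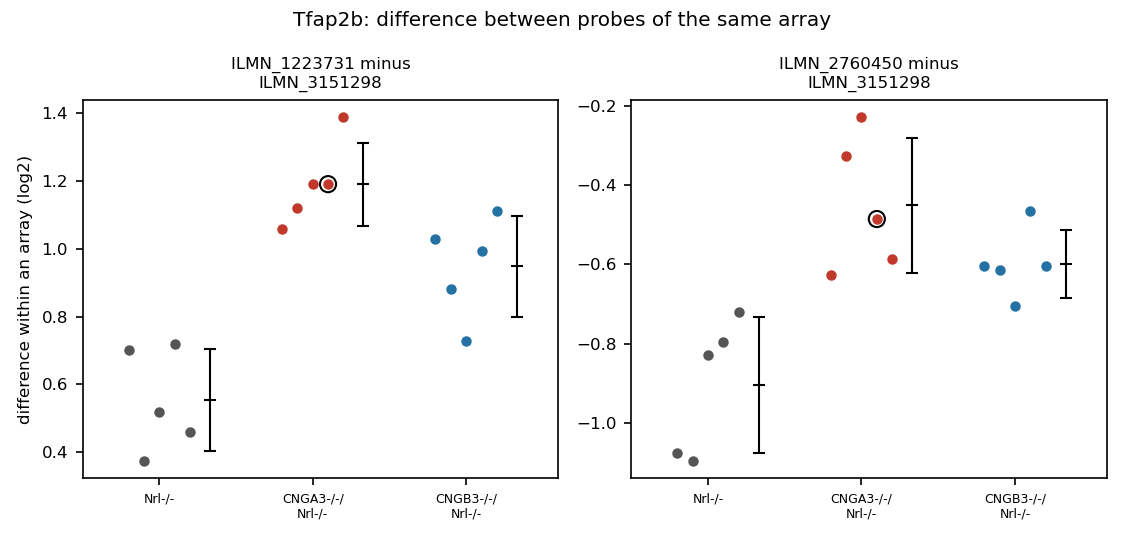
Difference between Tfap2b probes within each array (log2, vertical axis), 1 point per mouse, with the mean and SD of 5 arrays per group. In both panels every double knockout array lies above every control array, by a narrow margin for the lowest Cngb3 array. The ring marks Cnga3 double knockout replicate 4, which lies inside its group.

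The window before the Tfap2b start is shown since 1 of its probes was called, and since AP-2 factors bind GC-rich sites. It is plus strand, chr1:19211804-19212053 on GRCm38.p6, from RefSeq.
Tfap2b: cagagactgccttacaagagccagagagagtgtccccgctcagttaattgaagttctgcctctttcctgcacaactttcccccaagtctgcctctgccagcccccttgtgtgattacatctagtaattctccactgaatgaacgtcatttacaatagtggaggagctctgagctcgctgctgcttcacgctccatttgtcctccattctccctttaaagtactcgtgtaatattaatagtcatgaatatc
It held no match to the AP-2 core GCCNNNGGC, which reads the same on both strands, nor to TATAAA or CCAAT, so no letters are in capitals. The AP-2 core was present in 13.7% of all windows and in windows of 2 of the 10 amacrine genes, Gad2 and Pax6.

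Tfap2a encodes AP-2 alpha, the related factor of amacrine cells, and none of its 3 probes passed. The brightest, ILMN_2764846, read 7.22 ± 0.203 in the control, 7.36 ± 0.169 in the Cnga3 and 7.41 ± 0.195 in the Cngb3 double knockout, and the groups overlapped. Its changes were 0.14 (95% interval -0.14 to 0.43, adjusted p = 0.535) and 0.18 (-0.10 to 0.47, adjusted p = 0.466). The probes ILMN_2913031 and ILMN_2726449 were above background on 13 and 7 arrays, and their differences lay between -0.22 and 0.02.

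Pax6 encodes a paired homeodomain factor kept on in mature amacrine, horizontal and ganglion cells. Its probe was dim, with intensities from 147.1 to 314.4, and above background on 14 of 15 arrays. It read 5.32, 6.30, 6.15, 6.81 and 5.70 in the controls. The Cnga3 double knockouts read 6.08, 6.85, 5.63, 7.54 and 6.41, and the Cngb3 double knockouts 6.06, 5.07, 5.42, 6.17 and 5.60. The groups overlapped throughout, and the highest value was again in Cnga3 double knockout replicate 4. Neither change passed (0.45, SE 0.332, adjusted p = 0.414, and -0.39, SE 0.332, adjusted p = 0.53). The Cnga3 minus Cngb3 difference of 0.84 had the lowest unadjusted p of the 15 probes in that comparison (0.022) and did not pass after adjustment (adjusted p = 0.26).

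Between the Cnga3 and the Cngb3 double knockout limma called 0 of the 15 amacrine probes, with 1 at an unadjusted p under 0.05, where 0.405% of all probes were called and 14.5% had an unadjusted p under 0.05. The fitted differences ran from -0.23 to 0.84. For Gad1 (ILMN_2621743) the 95% interval of the difference was -0.47 to 0.33, for Slc32a1 -0.24 to 0.29 and for the brighter Chat probe -0.66 to 0.28. At an unadjusted p under 0.05 there were 8 of 15 probes in the Cnga3 comparison (7 higher) and 6 of 15 in the Cngb3 comparison (5 higher), beside 25.8 and 20.4% of all probes. For the mean of the double knockouts it was 8 of 15, beside 25.6%. The dimmer Chat probe, which entered the test through the Cnga3 group, is among the 8 of the Cnga3 comparison and the 8 of the mean. The members were chosen with earlier results of these data known, so the counts here are a description. In the Cngb3 comparison 5 of 15 probes had groups that did not overlap, 4 higher (both Gad1 probes, Slc32a1 and Chat) and 1 lower (Npy), beside 6.69% of all probes (2.88% higher, 3.82% lower). It was 0 of 15 in the Cnga3 comparison (6.74% of all probes), between the double knockouts (4.93%) and for both double knockouts together (2.07%).

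The amacrine probes varied least among the Cngb3 double knockouts. Over the 10 probes above background on all arrays, the median SD was 0.0974 there, 0.219 in the Cnga3 double knockout and 0.283 in the control, and the Cngb3 group had the smallest SD for 9 of 10. All tested probes went the same way, with median SDs of 0.186, 0.268 and 0.308. In the Cnga3 double knockout replicate 4 was the lowest of its group on 9 of these 10 probes, and on Npy it was the highest. Its pigment epithelium level of 10.2 was the highest of its group, and the part of that tissue in the result was not tested. In the control, replicate 5 was the lowest on 5 of 10 probes and replicate 3 the highest on 5.

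**Figure D4:**
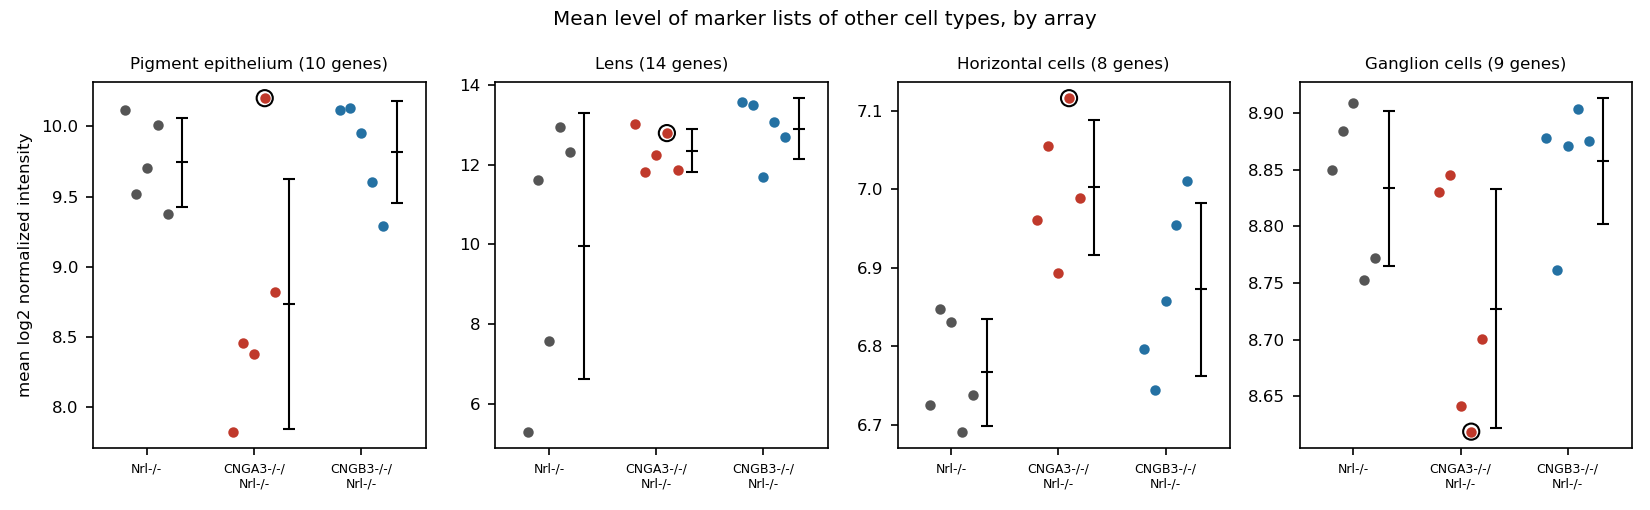
Mean normalized log2 intensity (vertical axis) of marker lists of other cell types, 1 point per mouse, with the mean and SD of 5 arrays per group; axes do not start at 0 and differ between panels. Control replicates 1 and 3 lie at 5.30 and 7.58 in the lens panel, and the ringed Cnga3 double knockout replicate 4 lies at 10.2 in the pigment epithelium panel.

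Beyond the 10 genes, 80 other amacrine genes were listed by role, of which 70 had a probe and 53 were tested on their brightest probe. In the Cnga3 double knockout 4 of 53 rose and 1 fell, beside 7.29% called among all genes so counted (3.46% higher, 3.83% lower). In the Cngb3 double knockout 1 rose and 1 fell, beside 2.51% (1.23% higher, 1.28% lower). In either direction together these shares are near the background, while the 4 rises in the Cnga3 double knockout exceed the 3.46% share. The lists were chosen with earlier results of these data known, so the counts and medians of these genes are a description. The median change was 0.15 and 0.05, where all genes had -0.03 and -0.01. The mean of the double knockouts gave 4 higher and 1 lower (beside 6.68%, of which 3.32% higher and 3.36% lower), and the Cnga3 minus Cngb3 comparison gave 0 by limma (0.418% of all genes), with 6 at an unadjusted p under 0.05. Such a p was seen for 18 of the 53 genes in the Cnga3 and 14 in the Cngb3 comparison, and for 19 in the mean of both. Counted by probe, 14.5% of all tested probes had such a p between the double knockouts. It was 25.8% in the Cnga3 and 20.4% in the Cngb3 comparison, and 25.6% for the mean of both. The unadjusted counts of the lists below stand beside these shares.

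Rises among these genes were spread over roles. Among 13 tested genes of AII and general amacrine cells, the RNA-binding protein gene Rbfox3 rose by 0.68 (adjusted p = 0.00924) and the cadherin gene Cdh8 by 0.77 (adjusted p = 0.0158) in the Cnga3 double knockout. Cdh8 also rose in the Cngb3 double knockout, by 0.68 (adjusted p = 0.0494). On probes that were not the brightest of their gene, Gjd2, the connexin of AII gap junctions, rose by 0.87 (adjusted p = 0.0236, above background on 3 of 5 controls) in the Cnga3 double knockout, and the neurexin gene Nrxn3 by 0.52 (adjusted p = 0.0365) and by 0.57 in the Cngb3 double knockout (adjusted p = 0.0442). The brightest probes of Gjd2 and Nrxn3 were not called in either comparison. The mean level of this list was 9.31 to 9.40 in the controls, 9.35 to 9.67 in the Cnga3 and 9.47 to 9.57 in the Cngb3 double knockout. Every Cngb3 double knockout array thus lay above every control. The mean levels of the other amacrine lists overlapped the controls in both double knockouts. Of 8 starburst and cholinergic genes, Tenm3 rose by 0.55 (adjusted p = 0.0377) in the Cnga3 double knockout. A dimmer probe of the transcription factor gene Sox2 rose 2.00-fold there (adjusted p = 0.00649, above background on 4 of 5 controls), and the brightest Sox2 probe was not called. In the Cngb3 double knockout 0 were called (3 at an unadjusted p under 0.05). Of 10 peptide and modulator genes, Crhbp, which encodes a binding protein of corticotropin-releasing hormone, rose by 0.78 in the Cnga3 double knockout (adjusted p = 0.0215).

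Falls were fewer. Of 11 tested amacrine transcription factor genes, Ebf2 fell by 0.75 in the Cnga3 (adjusted p = 0.0265) and by 0.86 in the Cngb3 double knockout (adjusted p = 0.0249), with no overlap with the control in either. Its probe was dim, above background on 4 of 5 arrays of the control, 4 of 5 of the Cnga3 and 2 of 5 of the Cngb3 double knockout. On the other side, a dimmer probe of Prox1, a homeobox gene of AII amacrine and horizontal cells, rose by 0.74 in the Cnga3 double knockout (adjusted p = 0.0377, above background on 3 of 5 controls). The brightest Prox1 probe was not called. Of 7 genes of GABA and glycine handling, the brightest probes gave 0 calls in both comparisons (1 at an unadjusted p in each), and a dimmer probe of the amino acid transporter gene Slc38a2 was lower in the Cnga3 double knockout (adjusted p = 0.0394), where it was above background on 1 of 5 arrays against 5 of 5 controls, so the size of the fall is not measured. The 5 tested genes of dopamine and catecholamine synthesis and transport gave 0 calls by limma. Their median change was -0.40 in the Cnga3 double knockout, the lowest of the amacrine lists in that comparison, and -0.03 in the Cngb3 double knockout. Their mean level was 6.63 to 6.95 in the controls, 6.48 to 6.65 in the Cnga3 and 6.67 to 6.82 in the Cngb3 double knockout, with overlap. At an unadjusted p under 0.05 there were 3 in the Cnga3 and 0 in the Cngb3 double knockout, beside 25.8 and 20.4% of all probes.

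Horizontal cells share several of these markers. Their 8 tested genes gave 1 rise in the Cnga3 double knockout (Tpm3, 0.67, adjusted p = 0.0165) and 0 calls in the Cngb3 double knockout. There 4 had an unadjusted p under 0.05, beside 20.4% of all probes. Their mean level was 6.69 to 6.85 in the controls, 6.89 to 7.12 in the Cnga3 and 6.74 to 7.01 in the Cngb3 double knockout. Every Cnga3 double knockout array thus lay above every control, while the Cngb3 double knockouts overlapped the controls. Probes of the horizontal markers Onecut1, Calb1 and Gja10 were above background on 0 arrays. Of 9 ganglion cell genes, Thy1 (adjusted p = 0.0377) and Atoh7 (adjusted p = 0.00785) fell by 0.56 and 0.80 in the Cnga3 double knockout, and Atoh7 by 0.63 in the Cngb3 double knockout (adjusted p = 0.0415). The Atoh7 probe was above background on 3 of 5 controls and on 2 of 5 arrays of each double knockout, so its values lie mostly at background. The mean level of the ganglion list overlapped in all groups, at 8.75 to 8.91, 8.62 to 8.85 and 8.76 to 8.90. Other lists moved as well. The mean level of 10 cone genes was 12.17 to 12.51 in the controls, 11.71 to 12.20 in the Cnga3 and 11.88 to 12.02 in the Cngb3 double knockout, and that of 11 bipolar cell genes was 9.94 to 10.17, 10.01 to 10.13 and 9.65 to 9.88. In both lists the Cngb3 double knockouts lay below every control. The cone list includes the targeted genes Cnga3 and Cngb3. Its Cngb3 probe alone fell by 2.08 in the Cngb3 double knockout, so the separation of the cone list is built in at least in part. The level of the cone list without the targeted genes was not computed. The mean level of 10 Mueller glia genes was 10.57 to 10.98, 10.89 to 11.04 and 10.97 to 11.08. Of these, Aqp4 rose by 0.70 (adjusted p = 0.0465) in the Cnga3 and by 0.98 (adjusted p = 0.0186) in the Cngb3 double knockout. Car2 rose by 0.52 in the Cnga3 double knockout (adjusted p = 0.0318). A Dkk3 probe that was not its brightest rose by 1.04 (adjusted p = 0.0417) and 1.16 (adjusted p = 0.0457), and the brightest was not called. The part of these other cell types in the amacrine values was not tested.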

How the data were processed

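Expression was measured on an Illumina mouse beadchip in 15 pairs of retinas, 5 mice per group, with groups and replicate numbers from the sample titles. Per the labels' protocols, RNA was isolated with a PureLink kit, amplified and labelled with biotin. Per the submitters' processing notes GenomeStudio was used (no version stated there). The authors deposited linear intensities and, per the file headers, detection p-values in steps of 1 in 798. Their processed table holds log2 values, found here to be the log2 of the quantile-normalized intensities. No slide or scan date is given, so batches could not be examined, and the number of arrays limits the precision.

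Intensities were normalized with neqc (offset 16) in limma 3.58.1, R 4.3.3. All groups entered 1 linear model (12 residual degrees of freedom), fitted over all 13077 probes detected (p under 0.01) on at least 5 arrays, with two-sided moderated tests. Symbols came from the platform annotation, with 1 symbol for 23978 probes and none for 1719. The fit was tested on simulated data. The named-gene rule took every probe of every member. Of the amacrine, horizontal, ganglion cell and Mueller glia lists, up to 4 called genes are named for each double knockout against the control. The cone, bipolar cell and pigment epithelium lists also held called genes, which are not listed here in full. The members and lists were chosen with earlier results of these data known. Where a group had no detected array, "at least" folds use its detection limit. Promoter windows are from RefSeq on GRCm38.p6, and motifs were searched on both strands. Alternatives were the authors' log2 table, median centring, no background correction, an offset of 50, other detection filters, fits of the compared groups alone, array weights, the replicate number as a block, and fits without single arrays or without control replicates 1 and 3. Replicate numbers gave no general pairing of the arrays: of 15 same-numbered pairs, 4 had deviations correlated over 0.1 (range -0.11 to 0.28). All pairs of replicate 4 were among these (0.21, 0.28 and 0.14).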

Additional observations from a re-analysis of the deposited data

Results flagged for a closer look

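Single arrays far from the rest of their group were looked for in each of the 17 amacrine probes and 3 groups, 51 sets of 5 values, of which chance alone would flag about 1 in 20. Dixon's ratio, the gap to the nearest value over the whole range, exceeded 0.71 in 2 sets, both in Cnga3 double knockout replicate 4. For Gad1 (ILMN_2621743) that array read 10.93, where the other 4 lay between 11.77 and 11.94 (ratio 0.829). For Tfap2b (ILMN_1223731) it read 11.26, where the other 4 lay between 11.61 and 11.70 (ratio 0.782). The same array had a pigment epithelium level of 10.2, against at most 8.82 in the rest of its group, and the part of that tissue in these values was not tested.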

How the results depend on the processing

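Counts of amacrine probes called moved with the setting. In the Cnga3 comparison, 3 under the main setting became 8 with array weights, 5 without control replicates 1 and 3, and 0 when the compared groups alone were fitted, and ranged from 0 to 6 without 1 array. In the Cngb3 comparison, 1 became 4 with array weights, 3 without control replicates 1 and 3, and 0 with median centring or with the compared groups alone, and ranged from 0 to 3 without 1 array. For the mean of the double knockouts, 3 became 8 with array weights and 6 without control replicates 1 and 3, and ranged from 1 to 6 without 1 array. The 6 calls without 1 array were those without Cnga3 double knockout replicate 4. That array was the lowest of its group on 9 of the 10 probes above background on all arrays, and the highest on Npy. The cause was not tested. Between the double knockouts the count was 0 under every setting run, and from 0 to 0 without 1 array. With the replicate number as a block the counts were 2, 2, 0 and 2. Apart from that fit, the deviations of each array from its group mean were compared with those of arrays in the other groups. They correlated best with an array of the same number for 5 of 15 arrays.

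Over 1405 recomputed fold changes, 54 changed sign, none of them of a called probe and all of values of at most 0.14 in size. Npy kept its call for the mean of the double knockouts in all 15 fits without 1 array and in all 8 other settings (adjusted p of at most 0.0469). The Tfap2b differences within arrays, chosen after they were seen, lay between 0.26 and 0.68 under the other normalizations, without single arrays and without control replicates 1 and 3.

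Over all probes, median centring moved the median Cnga3 change from -0.01 to 0.11 and the share of calls that were higher from 57.4 to 83.4%. In the Cnga3 comparison 1051 probes were called, 1880 with array weights and 323 with the compared groups alone. In the Cngb3 comparison these were 351, 1054 and 230, and between the double knockouts 53 became 1170 with array weights, 201 with median centring and 122 with the replicate block. Between the double knockouts median centring also moved the share of calls that were higher, from 45.3 to 85.1%, and for the mean of both from 58.6 to 75.0%. The authors' log2 table and the setting with no background correction hold the same values and are counted once. Leaving out 1 array moved these counts to between 551 and 1229 for Cnga3, 130 and 828 for Cngb3, 19 and 180 between the double knockouts, and 500 and 1472 for the mean of both. The move was over 1.5 times without control replicate 2 in all 4, and also without Cnga3 replicates 2 or 5 (Cnga3), control replicates 1 or 5, Cnga3 replicate 4 or Cngb3 replicates 1 to 4 (Cngb3), Cnga3 replicates 1, 2, 3 or 5 or Cngb3 replicates 1 to 4 (between the double knockouts), and control replicate 5 (mean). Dim probes (the second Chat probe, Pax6, Th and Gad2) lay near background, which limits what they show.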
